A study of Homo sapiens with 4 samples.

Results

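The genes described here are 10 classical markers and drivers of the epithelial-mesenchymal transition (EMT): the cadherins CDH1, CDH2 and CDH3, the intermediate filament gene VIM, the fibronectin gene FN1, and the transcription factor genes SNAI1, SNAI2, TWIST1, ZEB1 and ZEB2. They were chosen by symbol, and each was represented by the probe set that carried this symbol alone. Where a gene had several such probe sets, the brightest was taken. All 10 were measured, among 14232 genes on the arrays, and only FN1 had a further probe set of its own. RNA came from TE-1, an established line of esophageal squamous cell carcinoma, grown in RPMI medium. Cells of the TE-1-siFOXM1 group received siRNA against FOXM1, those of the TE-1-SCR group a scrambled siRNA, both by lipid transfection, and each group had 2 arrays. The methods describe repeated transfection on successive days and harvest on the day after the last, and no source used here says whether the replicates were separate cultures. Both groups therefore carry the transfection itself, only 1 cell line was studied, and a p-value reflects the spread among 4 arrays alone, part of which may be technical.

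EMT is a program in which epithelial cells give up cell-cell junctions and gain motility. E-cadherin holds epithelial cells together through catenins at adherens junctions, while N-cadherin, vimentin and fibronectin are typical of mesenchymal cells. Proteins of the SNAI and ZEB families repress CDH1 by binding E-box motifs, and carcinoma cells often show epithelial and mesenchymal genes side by side. FOXM1 is a forkhead transcription factor that drives genes of cell division, and the comparison asked how TE-1 expression differed once it was silenced.

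FOXM1 silencing in TE-1 cells left all 10 genes within 1.5-fold, the criterion of the study, of their level in TE-1-SCR cells, although FOXM1 itself was 3.95-fold lower. The differences ran from -0.19 for TWIST1 to 0.18 for ZEB1 on the log2 scale, or at most 1.14-fold. Of all 14232 genes, 0.562% passed the criterion upwards and 0.450% downwards, so that a count of 0 among 10 genes is near this background. The difference was positive for 6 genes and negative for 4, with a median of 0.04 against 0.003 over all genes. Limma tests each probe set with its own spread, drawn toward a value shared by all probe sets. It gave an adjusted p of 1 for each of the 10 after Benjamini-Hochberg adjustment. Over all 22011 probe sets 0 passed an adjusted p of 0.05, and 680 (3.09%) had an unadjusted p under 0.05, none of them a probe set of the 10 genes. In such bulk RNA, fewer cells of a kind and less RNA per cell cannot be told apart.

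FOXM1 had log2 values of 8.28 and 8.06 on the TE-1-siFOXM1 arrays and of 10.55 and 9.75 on the TE-1-SCR arrays, a difference of -1.98 (standard error 0.30, limma adjusted p = 1, unadjusted p = 0.00126). The groups did not overlap, and with so few arrays a two-sided exact permutation test cannot go below p = 0.333. The values are RMA log2 expression values, in which a step of 1 is a doubling of signal. The 4 arrays had medians between 7.54 and 7.63 and correlated at 0.984 to 0.992 across probe sets.

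**Figure D1:**
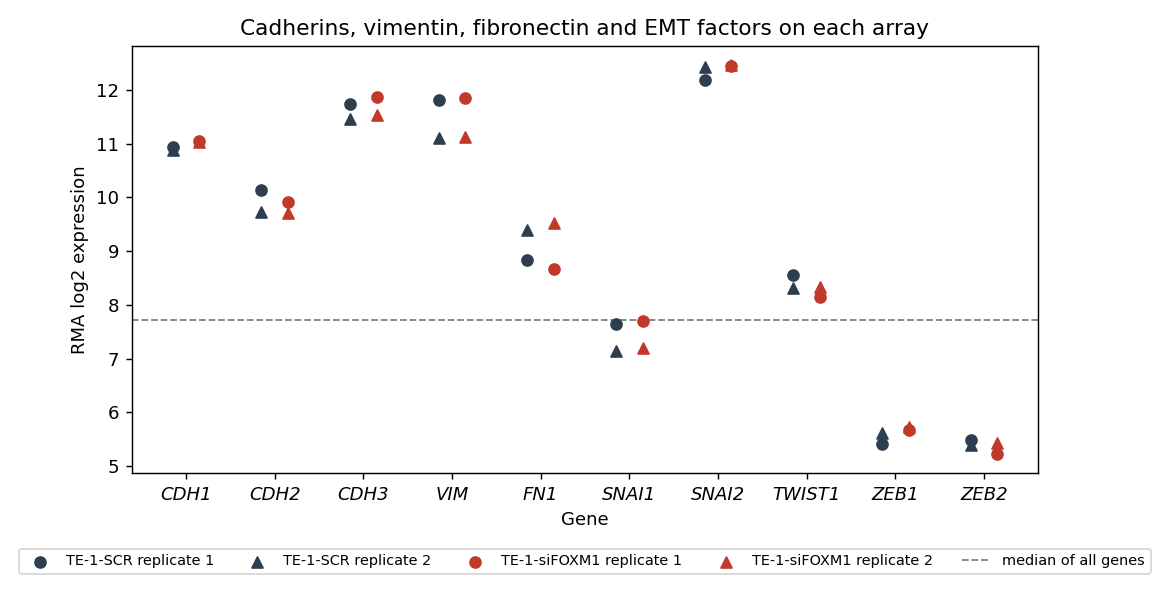
RMA log2 expression of the 10 genes on each of the 4 arrays, by group (color) and replicate number (circle for 1, triangle for 2), with the median of all genes (7.72) as a dashed line. The groups lie close together for every gene, and ZEB1 and ZEB2 lie between 5.23 and 5.72. CDH2, CDH3, VIM, SNAI1 and FN1 separate by replicate number, VIM and FN1 the most.

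RefSeq start sites were used for 5 of the 10 genes (VIM, ZEB1, ZEB2, FN1 and CDH2), with 12 upstream windows of 250 bases, 7 of them of ZEB1. No window was at hand for CDH1, CDH3, SNAI1 and TWIST1. SNAI2 was left out because of the chromosome it lies on, an exclusion that the shares over all windows do not make. The 12 windows were searched on both strands for CAGGTG, the E-box letters that SNAI and ZEB proteins bind, and for TGTTTA, a forkhead core. The E-box was found in 2 of the 12 windows, both of ZEB1, and in 17.49% of all 35116 such windows. The forkhead core was found in 2, of VIM and ZEB1, and in 10.99% of all windows. With 2 of 12 windows for each motif, these counts are near the shares over all windows. The stretches are shown so that the matches can be read in place. All are on chromosome 10 of GRCh38.p14, plus strand, 5′ to 3′, and capitals mark the match. A match is no evidence of binding.
VIM upstream window, chr10:17227991-17228240: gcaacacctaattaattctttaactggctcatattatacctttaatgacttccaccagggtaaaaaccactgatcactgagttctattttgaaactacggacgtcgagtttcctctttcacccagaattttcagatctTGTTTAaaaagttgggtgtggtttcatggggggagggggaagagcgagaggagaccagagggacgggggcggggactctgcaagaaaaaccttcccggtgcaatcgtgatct
ZEB1 E-box, chr10:31318348-31318377: ccgaggtgacagCAGGTGagggccgggtgc
ZEB1 E-box as its reverse complement, chr10:31318966-31318995: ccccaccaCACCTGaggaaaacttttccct
ZEB1 E-box, chr10:31319119-31319148: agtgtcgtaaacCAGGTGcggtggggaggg
ZEB1 forkhead core, chr10:31321065-31321094: cgaggaaatacgTGTTTAggagaaaactct
The match in the VIM window starts 112 bases before the start site. In ZEB1 the E-box letters start 57, 242 and 85 bases, and the forkhead letters 124 bases, before the respective start sites.

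CDH1 encodes E-cadherin, the cadherin of epithelial adherens junctions. Its log2 expression was 11.04 and 11.03 on the TE-1-siFOXM1 arrays and 10.94 and 10.88 on the TE-1-SCR arrays, and 96.2% of genes had a lower signal. Both silenced arrays lay above both controls. The gap was small, with a difference of 0.12 (standard error 0.13, 95% interval from -0.23 to 0.46, limma adjusted p = 1) or 1.09-fold, and the interval lay within 1.5-fold in both directions. CDH1 varied less across the 4 arrays than any other of the 10 genes, with a range of 0.16.

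CDH2 encodes N-cadherin, which replaces E-cadherin in many cells that undergo EMT. It gave 9.92 and 9.71 in TE-1-siFOXM1 and 10.14 and 9.73 in TE-1-SCR cells. The TE-1-SCR array numbered 1 was the highest, and the groups overlapped. The difference was -0.11 (standard error 0.20, 95% interval from -0.62 to 0.39, limma adjusted p = 1), and 0.09 without that array. Of all genes, 87.8% had a lower signal, so that the probe sets of E-cadherin and N-cadherin were both well above the median of the arrays.

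CDH3 encodes P-cadherin, the cadherin of basal cells in stratified epithelia. Its values were 11.86 and 11.53 with siRNA against FOXM1 and 11.73 and 11.45 with the scrambled siRNA. The arrays numbered 1 were the higher in both groups, and the groups overlapped. The difference was 0.10 (standard error 0.19, 95% interval from -0.39 to 0.60), and it turned to -0.06 without TE-1-siFOXM1 replicate 1 and to -0.04 without TE-1-SCR replicate 2. The signal exceeded that of 98.3% of genes.

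VIM encodes vimentin, the intermediate filament protein of mesenchymal cells, which is also found in motile carcinoma cells. Its log2 expression was 11.84 and 11.12 in TE-1-siFOXM1 cells and 11.81 and 11.10 in TE-1-SCR cells. The values of the groups were nearly equal, whereas both arrays numbered 1 lay above both numbered 2, by 0.73 in TE-1-siFOXM1 and by 0.72 in TE-1-SCR. The difference after silencing was 0.02 with a wide 95% interval, from -0.89 to 0.94 (standard error 0.35, limma adjusted p = 1). This interval did not exclude a 1.5-fold change in either direction. It comes from a fit without a replicate term, so the split by number counts as spread in it. Within the arrays numbered 1 the difference was 0.03, and within those numbered 2 it was 0.02. Leaving out TE-1-siFOXM1 replicate 1 or TE-1-SCR replicate 2 gave -0.34 each. VIM stood above 97.9% of genes in signal.

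FN1 encodes fibronectin, a matrix glycoprotein that mesenchymal cells lay down and that integrins bind. It was 8.67 and 9.53 on the TE-1-siFOXM1 arrays and 8.84 and 9.39 on the TE-1-SCR arrays. Here the arrays numbered 2 were the higher, by 0.85 and 0.55, the reverse of VIM, and the groups overlapped. The difference was -0.01 (standard error 0.35, 95% interval from -0.92 to 0.90), with 0.41 without TE-1-siFOXM1 replicate 1 and 0.26 without TE-1-SCR replicate 2. The dimmer probe set of FN1, at a mean of 5.94, gave 5.87 and 5.67 after silencing against 5.63 and 6.57, a difference of -0.33 (standard error 0.33) that rested on the single TE-1-SCR value of 6.57.

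**Figure D2:**
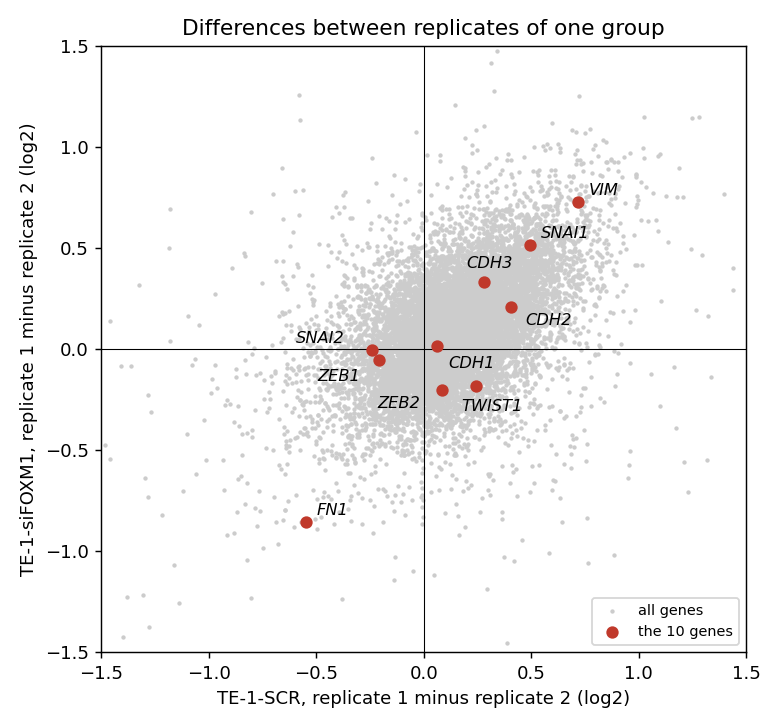
Replicate 1 minus replicate 2 on the log2 scale, in TE-1-SCR (horizontal axis) and TE-1-siFOXM1 (vertical axis), for all genes (grey, with 28 beyond the axes) and the 10 genes (red). VIM (0.72 and 0.73) and SNAI1 (0.49 and 0.52) lie at the upper right, FN1 (-0.55 and -0.85) at the lower left, and CDH1 (0.06 and 0.01) near the origin.

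Among the transcription factors, SNAI2 had the brightest probe set. SNAI2, also known as Slug, is a zinc finger repressor of CDH1 that is also active in basal epithelial cells. Its values were 12.45 and 12.46 in TE-1-siFOXM1 and 12.19 and 12.43 in TE-1-SCR cells, above 99.4% of genes. Both silenced arrays lay above both controls, though the TE-1-SCR array numbered 2 came close to them, and the lower TE-1-SCR array made most of the difference of 0.14 (standard error 0.15, 95% interval from -0.25 to 0.54, limma adjusted p = 1). Without TE-1-SCR replicate 1 it was 0.02.

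SNAI1, or Snail, is the related zinc finger repressor that acts early in EMT. It gave 7.71 and 7.19 after silencing and 7.64 and 7.14 in controls, just under the median of all genes (7.72). As for VIM, both arrays numbered 1 exceeded both numbered 2, by 0.52 and 0.49, and the groups overlapped. The difference was 0.06 (standard error 0.26, 95% interval from -0.62 to 0.75), and -0.20 and -0.19 without TE-1-siFOXM1 replicate 1 and TE-1-SCR replicate 2.

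TWIST1, a helix-loop-helix factor of mesoderm that promotes EMT, had 8.15 and 8.34 in TE-1-siFOXM1 and 8.56 and 8.31 in TE-1-SCR cells. The TE-1-SCR array numbered 1 stood above the rest and the other values overlapped. The difference of -0.19 (standard error 0.16, 95% interval from -0.61 to 0.24, limma adjusted p = 1) was the lowest of the 10 genes, and it was -0.07 without that array.

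ZEB1 and ZEB2 encode zinc finger and homeodomain repressors of epithelial genes, and both probe sets were dim. ZEB1 had 5.67 and 5.72 in TE-1-siFOXM1 and 5.41 and 5.62 in TE-1-SCR cells, with 17.5% of genes below it. The groups did not overlap, and the difference of 0.18 (standard error 0.15, 95% interval from -0.20 to 0.57) was the highest of the 10 genes, with the lowest unadjusted p, 0.276 in limma. It was 0.08 without TE-1-SCR replicate 1. ZEB2 had 5.23 and 5.44 against 5.49 and 5.40, with 15.2% of genes below it and overlap between the groups. Its difference was -0.11 (standard error 0.15, 95% interval from -0.49 to 0.28), and -0.005 without TE-1-siFOXM1 replicate 1.

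Ordered by signal, the 10 probe sets ran from SNAI2 through CDH3, VIM, CDH1, CDH2, FN1, TWIST1 and SNAI1 to ZEB1 and ZEB2. The values of neighbours in this order overlapped across the 4 arrays only for CDH3 with VIM and for ZEB1 with ZEB2. Probe sets differ in how strongly they bind their transcripts, so this is an order of array signal and not of RNA amount.

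**Figure D3:**
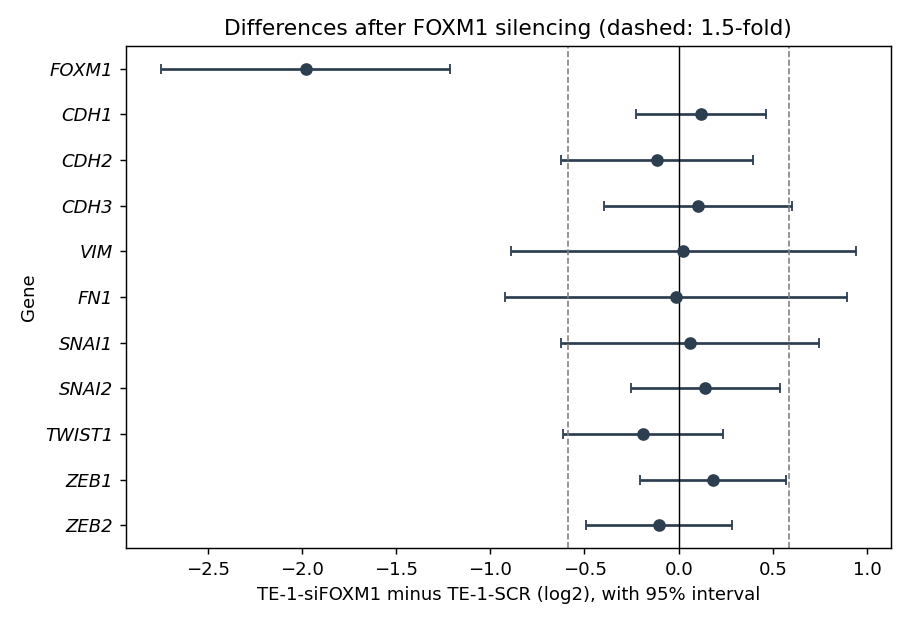
Difference of TE-1-siFOXM1 minus TE-1-SCR on the log2 scale for FOXM1 and the 10 genes (points, 2 arrays in each group). Bars are 95% intervals from limma without a replicate term, and dashed lines mark 1.5-fold. The interval of FOXM1 runs from -2.75 to -1.21, while those of the 10 genes all hold 0 and are widest for VIM and FN1.

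The groups did not overlap for 3 of the 10 genes, CDH1, SNAI2 and ZEB1, against 27.3% of all genes, which is near this background. All 3 were higher in TE-1-siFOXM1 cells, against 13.5% of all genes that did not overlap in this direction and 13.8% in the other. These 3 genes stand on opposite sides of EMT, since SNAI2 and ZEB1 encode repressors of CDH1. The 95% interval stayed within 1.5-fold for CDH1, SNAI2, ZEB1 and ZEB2, and reached past it for the other 6 genes. These intervals come from the fit without a replicate term, which counts a split by replicate number as spread. Replicates of the same group spread more than the groups did in several cases. The mean difference between arrays numbered 1 and 2 exceeded the difference between the groups for CDH2, CDH3, VIM, SNAI1 and FN1, or 5 of 10 genes, against 62.9% of all genes. These same 5 genes had no overlap between the numbers (53.4% of all genes), with number 1 the higher for 4 (43.0% of all genes) and number 2 for FN1 (10.4%). It was at least 1.5-fold for VIM and FN1, against 3.31% of all genes. What set the numbered arrays apart was not tested.

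Genes that work with the 10 were described by list, and no measured gene of these lists was 1.5-fold apart. The groups did not overlap for 3 of 10 cadherin partners, 4 of 17 other cadherins, 8 of 24 epithelial genes, 5 of 10 further EMT factors, 3 of 12 corepressors, 6 of 28 mesenchymal genes, 1 of 6 fibronectin receptors and 2 of 6 other filament genes, against the 27.3% of all genes. None of the 10 measured cadherin partners was 1.5-fold apart, with a median of -0.02. Beta-catenin, encoded by CTNNB1, which links cadherins to the actin-bound catenin, gave 11.90 and 11.84 in TE-1-siFOXM1 against 12.11 and 11.99 in TE-1-SCR, a difference of -0.18. Its relative plakoglobin, encoded by JUP, gave 11.39 and 11.50 against 11.24 and 11.36, a difference of 0.14. Both pairs were free of overlap, in opposite directions. The nectin genes NECTIN4 and NECTIN1 had differences of -0.16 (0.03 without TE-1-siFOXM1 replicate 2) and 0.12 (-0.04 and -0.05 without TE-1-siFOXM1 replicate 1 and TE-1-SCR replicate 2). FURIN, the protease that trims the cadherin precursor, had one of 0.20, and CBLL1, which encodes the E3 ligase Hakai, one of -0.11.

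Of 17 other cadherin genes measured, none was 1.5-fold apart and 15 lay below the median of all genes. Their median difference was 0.02, with the lowest values in CDH10 (-0.20) and CDH12 (-0.18) and the highest in CDH19 (0.09) and CDH11 (0.08). Those 4 probe sets were at 3.57 to 5.17 on every array.

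Epithelial genes were also within 1.5-fold, all 24 of them, with 12 positive and 12 negative differences and a median of 0.01. MAL2, a protein of apical transport, was the lowest (a mean of 12.20 ± 0.28 against 12.52 ± 0.02, SD, n = 2 each, a difference of -0.32), and its groups did not overlap. The transcription factor gene ELF3 had -0.22 (0.22 and -0.66 without TE-1-SCR replicates 1 and 2). The polarity gene CRB3 was the highest (7.90 and 7.91 against 7.67 and 7.69, a difference of 0.23), also with no overlap, and the tight junction gene CLDN1 followed with 0.18 (-0.06 without TE-1-siFOXM1 replicate 1).

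Of 10 further EMT transcription factors, none was 1.5-fold apart. TCF3, which encodes the E2A proteins, had a mean of 9.42 ± 0.14 in TE-1-siFOXM1 and 9.11 ± 0.14 in TE-1-SCR cells (SD, n = 2 each), a difference of 0.31. SOX9 gave 9.55 and 9.47 against 9.25 and 9.23, a difference of 0.27. Both were free of overlap, as were GSC (0.25) and, in the other direction, the chromatin protein gene HMGA2 (-0.16) and FOXQ1 (-0.12), while PRRX1 had -0.15. GSC and FOXQ1 were named after their values were seen. Among 12 corepressors and regulators of SNAI and ZEB proteins, the median was -0.02. The histone methyltransferase EZH2 (-0.27) and the demethylase KDM1A (-0.20) were lowest and free of overlap, and GSK3B (0.10, and -0.03 without TE-1-siFOXM1 replicate 1) and SIN3A (0.05, and -0.01 without TE-1-SCR replicate 2) highest. None of these genes passed an unadjusted p of 0.05 in limma.

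The widest differences were in the mesenchymal list, where none of 28 genes reached 1.5-fold, 9 were positive and 19 negative, and the median was -0.04. LOX, the lysyl oxidase that cross-links collagen, gave 7.33 and 7.67 in TE-1-siFOXM1 and 8.04 and 8.08 in TE-1-SCR cells. Both silenced arrays lay below both controls, and the difference was -0.56 (standard error 0.17, limma adjusted p = 1, unadjusted p = 0.0229), or -0.74 without TE-1-siFOXM1 replicate 2 and -0.39 without replicate 1 of that group. LOX was the single gene among all these lists with an unadjusted p under 0.05, against 1.83% of all genes. CCN2, a matricellular protein gene, followed with 9.09 and 10.08 against 9.70 and 10.45, a difference of -0.49 that was 0.00 without TE-1-siFOXM1 replicate 1, -0.98 without TE-1-siFOXM1 replicate 2 and -0.86 without TE-1-SCR replicate 1. INHBA, the activin chain, had 0.26 (-0.06 without TE-1-siFOXM1 replicate 1) and the surface gene THY1 0.21.

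The receptors of fibronectin had a median of -0.08 over 6 genes, from ITGB6 at -0.19 (0.22 and -0.59 without TE-1-siFOXM1 replicates 1 and 2, and -0.62 and 0.25 without TE-1-SCR replicates 1 and 2) to SDC4 at 0.03 (-0.12 without TE-1-SCR replicate 1). Of the 6 other filament genes, which include the filament linker gene PLEC, DES had -0.12 and NES 0.11, with a median of 0.04. Neither list held a gene 1.5-fold apart.

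**Figure D4:**
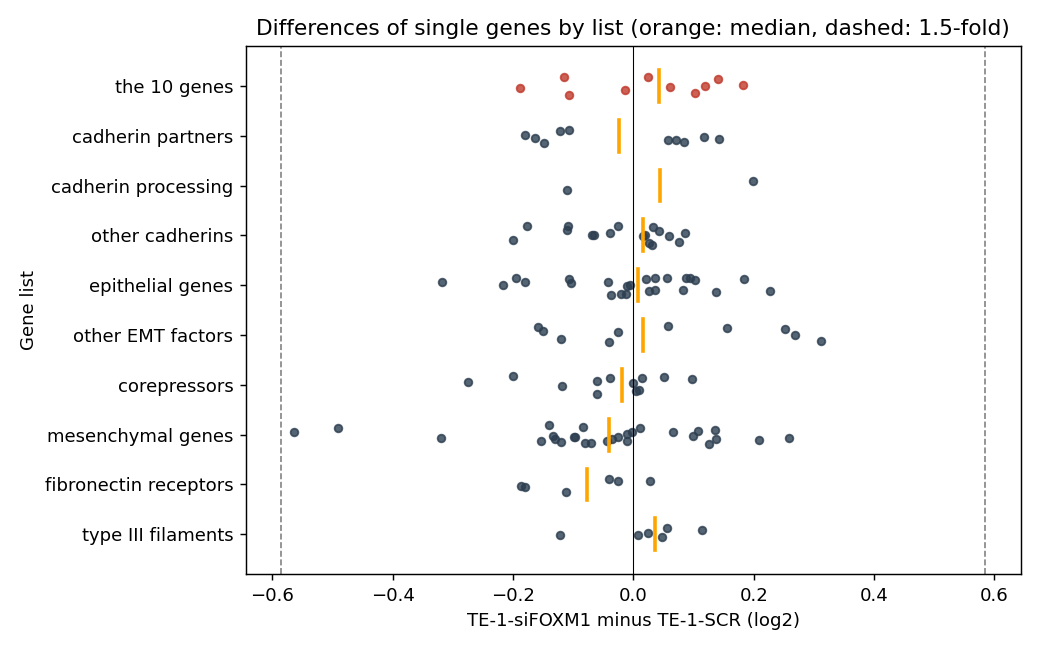
Difference of TE-1-siFOXM1 minus TE-1-SCR on the log2 scale for each measured gene (points, spread vertically for visibility) of the 10 genes and the other lists, with list medians in orange and 1.5-fold as dashed lines. All points lie inside the dashed lines, and LOX (-0.56) comes nearest to them.

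Markers of the cell type were checked on the same arrays. Of 12 epithelial markers, not all of them particular to squamous cells, 7 were measured under a symbol of their own. All lay above the median of all genes (7.72), up to KRT8 (13.55). KRT14 (7.94) and DSG3 (8.10), a desmosomal cadherin of squamous cells, were the lowest and close to that median. The difference was 0.39 for DSG3 (8.30 ± 0.22 against 7.91 ± 0.13, SD, n = 2 each) and -0.02 for EGFR. TP63, KRT5, KRT6A, KRT17 and SOX2 were not analysed here. Of 6 fibroblast markers, DCN (3.82) and LUM (3.11) were among the dimmest, COL1A1 was highest at 7.78, and their mean was 5.76 to 5.84 in TE-1-siFOXM1 and 5.69 to 5.75 in TE-1-SCR arrays. DCN had a difference of 0.31 and COL3A1 one of -0.10. The 5 endothelial markers ran from 4.20 to 6.47, with PECAM1 at a difference of 0.11 (-0.02 without TE-1-siFOXM1 replicate 2) and KDR at -0.03. Of 5 leukocyte markers, PTPRC, the pan-leukocyte gene, was at 3.58 (difference -0.15). CD68, which many cells express in lysosomes, was at 11.18 (0.17).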

How the data were processed

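Expression of TE-1 cells was measured on 4 Affymetrix arrays. The authors deposited log2 values made by robust multi-array average (RMA), with 22011 probe sets on each array. The submitters' notes name Expression Console, RMA and the build hg18, with no versions. Of the probe sets, 14432 carried 1 symbol in the platform annotation and gave 14232 genes. Groups came from the sample labels. Differences are group means on the log2 scale, with limma (version 3.58.1, R 4.3.3) fitted on all probe sets without a replicate term and Benjamini-Hochberg adjustment over all of them. The moderated test had 4.87 degrees of freedom. The calculation was checked on simulated data. The number of arrays limits the precision. Upstream sequences are from RefSeq (GRCh38.p14).

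The 10 genes and the other lists were chosen with earlier results of these data known. Named by rule are the 10 genes, FOXM1, and the largest increases and decreases of each list (2 each, or 1 in lists under 8 genes). Outside this rule, GSC, FOXQ1, LGALS1, FBN1 and COL5A1 were named after their values were seen. The markers KRT8, KRT14, LUM and COL1A1 were named for their level. Alternatives were a replicate block, quantile normalization, median centring, a filter at the median level, limma-trend with robust variance, averaging the probe sets of each gene, linear means, a 2-fold criterion, and leaving out each array.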

Additional observations from a re-analysis of the deposited data

How the results depend on the processing

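The counts of the 10 genes at least 1.5-fold higher or lower were 0 under all alternatives run. Some could not change them: the block, limma-trend and the filter leave each difference as it was, and a 2-fold criterion cannot raise a count of 0. The filter at the median level also dropped SNAI1, ZEB1 and ZEB2, so its counts cover the remaining genes. The count of probe sets past an adjusted p of 0.05 was 0 under all alternatives that refit limma, which linear means, averaged probe sets and the 2-fold criterion do not. The median of the 10 genes lay between -0.09 and 0.13 when single arrays were left out. With linear means FN1 turned from -0.014 to 0.022. Leaving out 1 array (a lone array is then taken to vary as the other group does) gave ranges from -0.32 to 0.088 for CDH2, -0.063 to 0.27 for CDH3, -0.34 to 0.39 for VIM, -0.20 to 0.32 for SNAI1 and -0.44 to 0.41 for FN1, while CDH1 (0.09 to 0.15), SNAI2 (0.02 to 0.26), ZEB1 (0.08 to 0.29), ZEB2 (-0.21 to -0.005) and TWIST1 (-0.31 to -0.07) kept their sign. The ranges also crossed 0 for CCN2 (-0.98 to 0.0025), CLDN1 (-0.055 to 0.42), EGFR (-0.12 to 0.082), ELF3 (-0.66 to 0.22), GSK3B (-0.030 to 0.23), INHBA (-0.061 to 0.58), ITGB6 (-0.62 to 0.25), NECTIN1 (-0.053 to 0.29), NECTIN4 (-0.35 to 0.026), PECAM1 (-0.024 to 0.24), SDC4 (-0.12 to 0.18) and SIN3A (-0.013 to 0.11). Leaving out 1 array unbalances the replicate numbers, so that part of any split by number enters the difference. Neither what set the numbered arrays apart nor the causes for single genes were tested. Past 1.5-fold were LOX (-0.74), CCN2 (-0.98) and ITGB6 (-0.59) without TE-1-siFOXM1 replicate 2, CCN2 (-0.86) and ITGB6 (-0.62) without TE-1-SCR replicate 1, and ELF3 (-0.66) without TE-1-SCR replicate 2. Over all genes, 80 higher and 64 lower became 23 and 27 after a filter at the median level, and ranged up to 232 and 258 without single arrays.

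Deviations of same-numbered arrays from their group means correlated at 0.34 across probe sets. With the replicate number as a block, the differences stayed as they were, since the design is balanced, the median of the 10 genes was 0.04, 0 probe sets passed and no call changed. Taken within arrays of the same number, the TE-1-siFOXM1 minus TE-1-SCR difference changed sign for TWIST1 (-0.40 for number 1, 0.02 for number 2). The same held for ZEB2 (-0.25 and 0.04) and FN1 (-0.17 and 0.14), while the other members of the 10 kept their sign. The labels do not say that a number marks a shared culture or day.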

Other observations

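Both arrays numbered 1 lay above both numbered 2 for CDH2, CDH3, VIM and SNAI1, and below them for FN1, in both groups. The same split was looked up in the mesenchymal list after it had been seen in these genes. Of the 28 genes, 8 were higher on the arrays numbered 1 and 9 on those numbered 2, against 43.0% and 10.4% of all genes. LGALS1, which encodes galectin-1, was 12.13 and 12.15 on the arrays numbered 1 (TE-1-siFOXM1 and TE-1-SCR) and 11.16 and 11.19 on those numbered 2. The matrix genes FBN1, encoding fibrillin, and COL5A1, a collagen chain, went the other way, with 6.74 and 6.65 against 7.27 and 7.16 for FBN1 and 8.56 and 8.44 against 8.93 and 8.80 for COL5A1. CCN2 was 9.09 and 9.70 against 10.08 and 10.45. Among the receptors of fibronectin, 4 of 6 were higher on the arrays numbered 2 and 0 on those numbered 1. ITGB6, an integrin chain of epithelial cells, was 10.18 and 10.34 against 10.99 and 11.21. The numbers are no factor of the study, and what the arrays of a number share was not stated in the labels or the methods.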
